A study of Mus musculus with 10 samples.

Results

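Cytotoxic granules are secretory lysosomes that killer lymphocytes load with perforin and granzymes. The 10 genes described here encode parts of these granules, their packing and their control, together with the surface protein CD7. They are Nkg7, Cd7, Gzma, Gzmb, Gzmk, Gzmc, Prf1, Srgn, Lamp1 and Serpinb9, taken by symbol from a count table of 27179 genes. All 10 passed the filter on low counts, which left 13214 genes for testing. Nkg7 and Cd7 are among them because they were the genes called higher in Maf-KO gut than in WT gut. That is, they were selected on their Maf-KO against WT difference in gut, and the other 8 were added by function with results of these data known. For that contrast, and for its difference from the spleen contrast, values are therefore given without a test.

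On contact with a target, perforin (Prf1) makes pores through which the granzymes, a family of serine proteases, reach the target's cytosol. Inside the granule these proteins are bound to serglycin (Srgn), a proteoglycan, and the granule membrane carries LAMP1 and NKG7. Serpinb9 encodes a cytosolic inhibitor of granzyme B that protects the cell which makes it. Granules are best known from CD8 T cells and natural killer (NK) cells. Regulatory T cells (Tregs), the Foxp3-expressing CD4 T cells that restrain other immune cells, can also make granzymes, and CD7 is an immunoglobulin-superfamily protein of T and NK cells.

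Tregs were sorted from C57BL/6 mice as CD4+ TCRb+ YFP+ cells and their RNA was sequenced. The groups were gut of Maf-KO mice (2 libraries), gut of WT mice (2), spleen of Maf-KO mice (3) and spleen of WT mice (3), where gut is colon plus small intestine. Maf-KO mice were Maffl/fl x Foxp3Cre-YFP, and the mice called WT were Foxp3Cre-YFP, so every animal carried the Foxp3-driven Cre and reporter and deletion is limited to cells in which Foxp3 is or was active. The series asks what c-Maf, the factor encoded by Maf, does in Tregs for gut Th17 cells and IgA. Libraries held 8567035 to 13983965 counts. Maf had 7 and 3 counts in Maf-KO gut against 859 and 918 in WT gut, and 2 to 10 counts in Maf-KO spleen against 312 to 484 in WT spleen. Foxp3 was present in every library, at 175 to 212 CPM in Maf-KO gut, 157 to 206 in WT gut, 114 to 123 in Maf-KO spleen and 117 to 134 in WT spleen. CPM is a gene's count scaled to a library total of 1000000, with TMM factors, and a floor of 3 counts lay between 0.231 and 0.377 CPM. The labels number the replicates without saying that they are separate animals, so p-values measure the spread between these samples, which may be technical.

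The genes lie on 6 chromosomes of the GRCm38 assembly, and the granzymes form pairs of neighbours. Gzma (chromosome 13, 113093824 to 113100981) and Gzmk (chromosome 13, 113171630 to 113180965) are 70648 bases apart, with no other coding gene lying wholly between them. Gzmb (chromosome 14, 56258836 to 56262334) and Gzmc (chromosome 14, 56231397 to 56241647) are 17188 bases apart. Nkg7 (chromosome 7, 43437138 to 43438246), Prf1 (chromosome 10, 61297751 to 61304684), Srgn (chromosome 10, 62493833 to 62527445), Lamp1 (chromosome 8, 13159161 to 13175338) and Serpinb9 (chromosome 13, 32997061 to 33017955) stand apart from the granzymes. Cd7 (chromosome 11, 121036747 to 121039478) has Sectm1b, a gene of the family that holds its human ligand, as its next coding neighbour on 1 side. The gene model of Gzma overlaps Cdc20b, and those of Cd7, Srgn, Serpinb9 and Gzmc overlap predicted genes, so reads could be shared with these where the counting did not use strand. Gzmc and Serpinb9 also have close paralogs next to them, and their counts may be split with these.

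Promoter sequences are shown for Nkg7, which with Cd7 was called higher in Maf-KO gut, and for Gzma, Gzmk and Gzmb, where neighbours on a chromosome differed widely in level. Each is the 250 bases before the RefSeq start (GRCm38.p6), 5′ to 3′ in the gene's direction, and RefSeq's promoter table held no entry for Cd7. Capitals mark matches, on either strand, to the Maf core element TGCTGA, the AP-1 element TGANTCA, the Runx element TGTGGT and the T-box element GGTGTGA.
Nkg7 (chr7:43436888-43437137, plus strand): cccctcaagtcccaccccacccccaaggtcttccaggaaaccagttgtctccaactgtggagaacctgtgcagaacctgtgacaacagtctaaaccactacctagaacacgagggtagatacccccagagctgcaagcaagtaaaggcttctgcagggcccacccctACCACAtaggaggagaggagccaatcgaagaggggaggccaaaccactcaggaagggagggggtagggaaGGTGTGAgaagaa
Gzma (chr13:113100982-113101231, minus strand): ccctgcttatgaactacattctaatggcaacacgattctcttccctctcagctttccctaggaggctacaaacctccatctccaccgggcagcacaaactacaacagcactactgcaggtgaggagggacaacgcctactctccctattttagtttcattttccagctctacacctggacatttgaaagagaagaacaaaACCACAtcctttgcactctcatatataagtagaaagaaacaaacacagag
Gzmk (chr13:113180966-113181215, minus strand): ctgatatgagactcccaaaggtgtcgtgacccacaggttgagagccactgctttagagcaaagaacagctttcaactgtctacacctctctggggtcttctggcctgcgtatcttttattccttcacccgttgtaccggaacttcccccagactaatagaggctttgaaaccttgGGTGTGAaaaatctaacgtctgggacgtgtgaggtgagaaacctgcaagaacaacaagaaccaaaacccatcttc
Gzmb (chr14:56262335-56262584, minus strand): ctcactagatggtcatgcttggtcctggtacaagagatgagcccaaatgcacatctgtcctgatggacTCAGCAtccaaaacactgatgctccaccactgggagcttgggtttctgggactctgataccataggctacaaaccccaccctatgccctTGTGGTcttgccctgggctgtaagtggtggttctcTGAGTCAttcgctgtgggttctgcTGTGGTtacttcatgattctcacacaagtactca
The Nkg7 window holds a Runx match beginning 83 bases before the start and a T-box match 13 bases before it. Gzma has a Runx match (50 bases before the start) and Gzmk a T-box match (75 bases). Gzmb has a Maf core match (182 bases), an AP-1 match (58 bases) and a pair of Runx matches (93 and 34 bases). Its low neighbour Gzmc also has a pair of Runx matches (174 and 108 bases), and Runx matches occur in the windows of Prf1, Lamp1 and 1 of the starts of Srgn as well. Of 32851 RefSeq promoter windows of this length, 16.1% hold the Maf core, 6.75% the AP-1 element, 14.04% the Runx element and 3.33% the T-box element. In the windows printed, no match overlaps another. The last 50 bases of the Nkg7, Gzma and Lamp1 windows also occur in transcripts of the GENCODE annotation. The T-box match of Nkg7 and the Runx matches of Gzma and Lamp1 lie in those bases and may be transcribed. The Gzmc window lies inside the Gzmc gene model given above. A match is a description of the letters in the window and not evidence that a factor binds there.

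Gut Tregs of both genotypes carried far more granzyme RNA than spleen Tregs, and most of the other granule genes were higher in gut as well. With edgeR's quasi-likelihood test, adjusted over all genes by Benjamini-Hochberg, 9 of the 10 genes were higher in gut than in spleen in Maf-KO mice and 7 of 10 in WT mice, and none was lower. Of all genes tested, 28.6% were called in the Maf-KO contrast (14.4% higher in gut) and 28.0% in the WT contrast (14.7% higher). Libraries of the tissues did not overlap, with gut higher, for 9 of the 10 genes in Maf-KO (27.5% of all genes) and 8 in WT (25.9%), and Lamp1 was apart and lower in WT (27.5%). The median log2 fold change of the 10 genes was 1.87 in Maf-KO and 1.29 in WT, beside -0.02 and -0.03 over all genes. The members were picked with results of these libraries known, and the gut libraries are those of the contrast that chose Nkg7 and Cd7. Both genes are held in these counts and medians, which are therefore a description. In bulk RNA, fewer expressing cells and less RNA per cell cannot be told apart.

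Gzma encodes granzyme A, a tryptase. It stood at 4501 and 4141 CPM in Maf-KO gut and 2872 and 2611 CPM in WT gut. In spleen it stood at 5.21, 20.2 and 5.95 CPM in Maf-KO (replicates 1, 2 and 3) and 12.8, 6.09 and 18.4 CPM in WT. The lowest gut library (2611 CPM) was far above the highest spleen library (20.2 CPM), and the spleen genotypes overlapped. Gut minus spleen was 8.70 on the log2 scale in Maf-KO (SE 0.63, fold 416, adjusted p = 1.131e-05) and 7.79 in WT (SE 0.61, fold 222, adjusted p = 1.682e-05). Among 13214 genes these were ranks 4 and 12 from the highest.

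Gzmb encodes granzyme B, which cleaves after aspartate and activates caspases in the target. It had 3137 and 3488 CPM in Maf-KO gut and 2156 and 1403 CPM in WT gut. The spleen libraries had 14.8, 30.5 and 36.6 CPM in Maf-KO and 22.2, 15.2 and 39.6 CPM in WT. Gut and spleen were again widely separate in both genotypes. The log2 fold change of gut against spleen was 6.92 in Maf-KO (SE 0.48, fold 121, adjusted p = 9.142e-06) and 6.12 in WT (SE 0.46, fold 69.6, adjusted p = 1.409e-05), ranks 13 and 52.

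Gzmk and Gzmc, the chromosomal neighbours of Gzma and Gzmb, were low everywhere. Gzmk, which encodes granzyme K, had 5.83 and 9.42 CPM in Maf-KO gut, 7.67 and 3.55 in WT gut, 0.651, 0.661 and 2.53 in Maf-KO spleen and 4.18, 0.385 and 2.09 in WT spleen. It rose in gut by 2.54 on the log2 scale in Maf-KO (SE 0.81, adjusted p = 0.0402), where the groups were apart. In WT the groups overlapped and the change of 1.34 (SE 0.79, adjusted p = 0.239) did not pass. Gzmc, a granzyme gene of the mouse cluster on chromosome 14, had 3.66 and 7.27 CPM in Maf-KO gut, 2.64 and 2.25 in WT gut, 1.302, 1.98 and 2.63 in Maf-KO spleen and 1.69, 2.003 and 1.14 in WT spleen. Its rise of 1.46 in Maf-KO passed (SE 0.41, adjusted p = 0.0253), and the value of 0.59 in WT did not (SE 0.44, adjusted p = 0.357). These calls rest on few counts, 67 and 118 for Gzmk and 42 and 91 for Gzmc in Maf-KO gut. The Gzmk call was lost without replicate 2 (0.0704) or 3 (0.183) of Maf-KO gut, replicate 1 (0.109) or 2 (0.117) of Maf-KO spleen or replicate 3 of WT spleen (0.0513). The Gzmc call was lost without replicate 1 (0.0711) or 2 (0.0628) of Maf-KO spleen or replicate 3 of Maf-KO gut (0.267). Over all alternatives the adjusted p ran from 0.00141 to 0.183 for Gzmk and from 0.00627 to 0.267 for Gzmc.

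Prf1, the perforin gene, was higher in gut by smaller log2 values than Gzma and Gzmb. It had 48.7 and 26.8 CPM in Maf-KO gut, 31.8 and 40.7 in WT gut, 9.98, 22.3 and 12.9 in Maf-KO spleen and 12.4, 11.2 and 22.7 in WT spleen. Gut libraries lay above spleen libraries in both genotypes, by 1.33 on the log2 scale in Maf-KO (SE 0.39, adjusted p = 0.0304) and 1.24 in WT (SE 0.40, adjusted p = 0.0413). The Maf-KO call ended without replicate 1 (0.0846) or 3 (0.084) of Maf-KO spleen or replicate 2 of Maf-KO gut (0.242), with alternatives from 9.547e-04 to 0.242. The WT call ended without WT gut replicate 1 (0.0866) or 3 (0.172), WT spleen replicate 1 (0.113) or 2 (0.12) or Maf-KO spleen replicate 3 (0.0507), with alternatives from 0.00112 to 0.172.

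Of the genes of the granule's structure, Srgn and Nkg7 rose in gut and Lamp1 did not pass. Srgn had 2003 and 2569 CPM in Maf-KO gut and 2770 and 2343 in WT gut, against 661 to 814 CPM in Maf-KO spleen and 770 to 914 in WT spleen. Its log2 fold change of gut against spleen was 1.63 in Maf-KO (SE 0.15, adjusted p = 5.839e-05) and 1.61 in WT (SE 0.15, adjusted p = 5.404e-05). Nkg7 had 649 and 736 CPM in Maf-KO gut, 341 and 262 in WT gut, 117, 114 and 125 in Maf-KO spleen and 102, 91.4 and 95.9 in WT spleen. The groups formed 4 steps that did not overlap, and gut exceeded spleen by 2.55 in Maf-KO (SE 0.13, adjusted p = 1.298e-06) and 1.64 in WT (SE 0.13, adjusted p = 1.728e-05). The values of these gut libraries chose Nkg7, so the steps and these p-values are not independent of that choice. Lamp1, a membrane protein of lysosomes in all cells, had 309.5 and 333 CPM in Maf-KO gut and 292 and 314 in WT gut, against 286 to 331 CPM in Maf-KO spleen and 323 to 375 in WT spleen. Gut minus spleen was 0.09 for Lamp1 in Maf-KO (SE 0.12, adjusted p = 0.613) and -0.17 in WT (SE 0.12, adjusted p = 0.301). Without TMM factors the median of all genes shifted to -0.28 in Maf-KO and -0.30 in WT and the calls split 1243 higher to 3701 lower and 1327 to 3938, in place of 1906 to 1868 and 1942 to 1761. The Lamp1 value was then -0.17 in Maf-KO, and in WT it was called lower (adjusted p = 0.0113), while the 9 other genes kept positive values.

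The inhibitor gene Serpinb9 and the surface gene Cd7 were higher in gut too. Serpinb9 had 136 and 119.6 CPM in Maf-KO gut and 153 and 113 in WT gut, against 70.4, 65.2 and 47.7 CPM in Maf-KO spleen and 56.2, 48.1 and 82.9 in WT spleen. Its log2 fold changes were 1.07 in Maf-KO (SE 0.24, adjusted p = 0.00818) and 1.09 in WT (SE 0.24, adjusted p = 0.0074). The Maf-KO call ended (0.0551) when replicate 2 of Maf-KO gut was left out and the WT call (0.0766) when replicate 1 of WT gut was, within ranges of 1.962e-04 to 0.0551 and 1.305e-04 to 0.0766. Cd7 had 257 and 174 CPM in Maf-KO gut and 68.9 and 81.2 in WT gut, against 43.7, 50.8 and 54.9 CPM in Maf-KO spleen and 41.5, 43.9 and 37.7 in WT spleen. Gut and spleen did not overlap for Cd7 in either genotype. Gut minus spleen was 2.11 in Maf-KO (SE 0.17, adjusted p = 2.249e-05) and 0.87 in WT (SE 0.17, adjusted p = 0.00439). The gut values also chose Cd7, so its p-values are not independent of that choice.

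**Figure D1:**
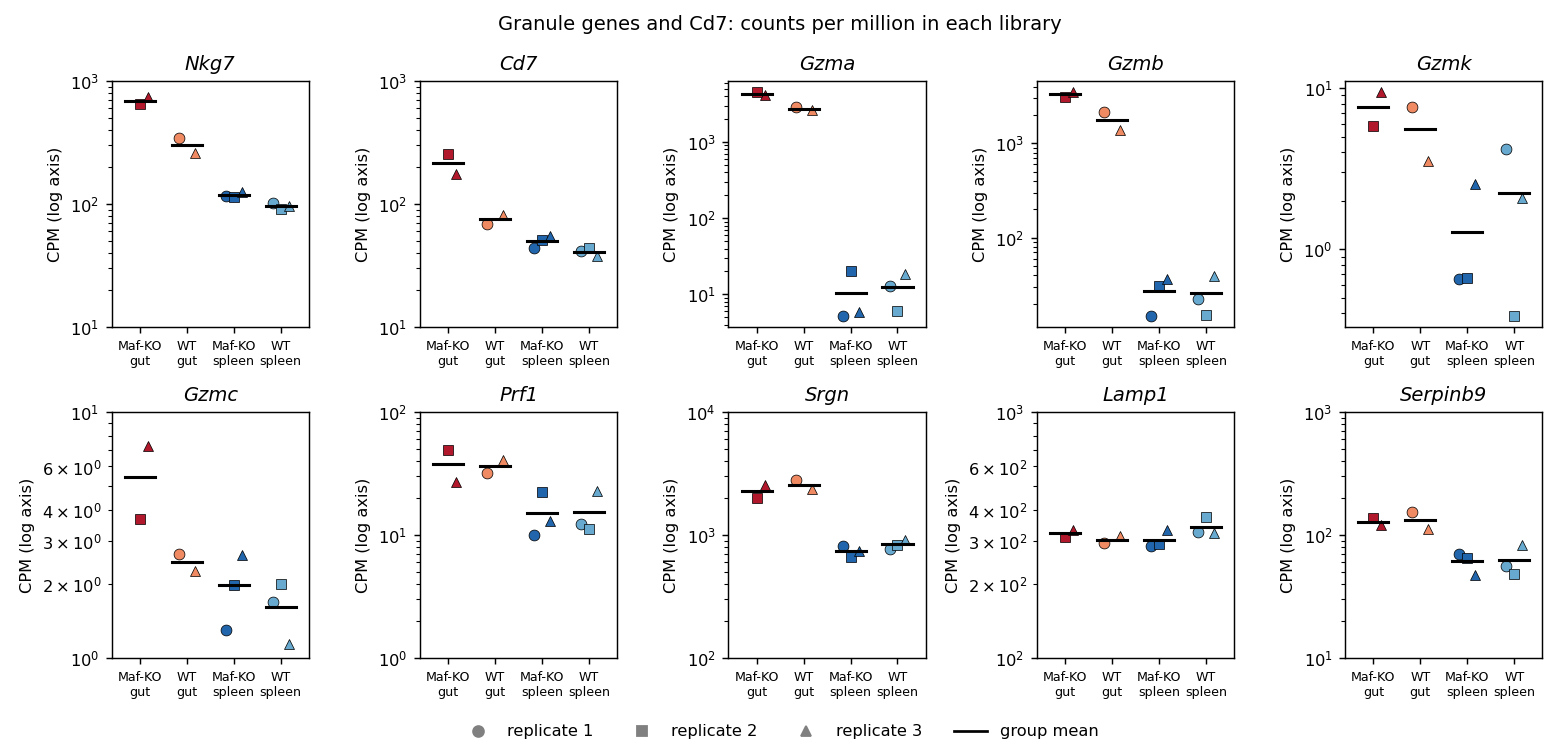
CPM (log axis) of each of the 10 genes in every library, by group, with symbols for the replicate number and bars at the group mean (2 libraries per gut group, 3 per spleen group). Gzma stands at or above 2611 CPM in all gut libraries and at or below 20.2 CPM in all spleen libraries, whereas Lamp1 stays between 286 and 375 CPM throughout.

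**Figure D2:**
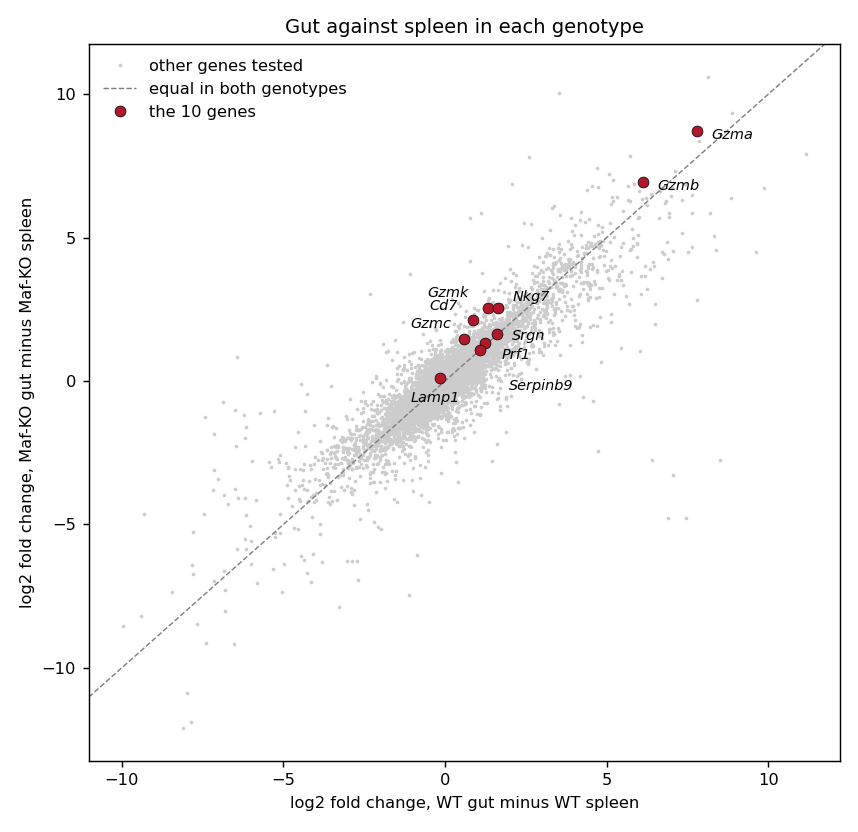
Log2 fold change of gut minus spleen in Maf-KO (vertical axis) against that in WT (horizontal axis) for the 13214 genes tested, with the 10 genes in red and a dashed line of equality. Gzma (8.70 in Maf-KO, 7.79 in WT) and Gzmb (6.92 and 6.12) lie near the upper end, and the distance of Nkg7 and Cd7 above the line holds the gut genotype contrast that chose them.

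In gut, Tregs without Maf carried more Nkg7 and Cd7 RNA than WT Tregs, and the more abundant granzymes were higher in each Maf-KO gut library than in each WT gut library. These values chose the genes, so they are a description. Nkg7 averaged 693 ± 61.4 CPM in Maf-KO gut and 302 ± 56.1 CPM in WT gut (SD, n = 2 each), a log2 fold change of 1.20 (SE 0.14). Cd7 averaged 216 ± 58.6 CPM in Maf-KO gut and 75.04 ± 8.70 CPM in WT gut, a log2 fold change of 1.52 (SE 0.19). Leaving out any 1 library moved these between 1.02 and 1.40 for Nkg7 and between 1.22 and 1.78 for Cd7. They were the 2 genes called higher, or 0.0151% of the genes tested (0.151% were called in either direction). That count was 0 when replicate 2 of Maf-KO gut or replicate 3 of WT gut was left out, and 1 when replicate 3 of Maf-KO gut or replicate 1 of WT gut was. It was 36 with DESeq2, 22 without the low-count filter, 7 without WT spleen replicate 2, 5 with limma-voom and 4 with the gut groups alone.

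Among the 8 other genes, Gzma (0.66, SE 0.53), Gzmb (0.90, SE 0.44) and Gzmc (1.16, SE 0.47) also had gut groups that did not overlap. In all, 5 of the 10 genes were apart and higher in Maf-KO gut, and 17.4% of all genes were. The 5 include Nkg7 and Cd7, which this contrast chose, so the count cannot be read against that share. Gzma averaged 4321 ± 255 CPM in Maf-KO gut and 2742 ± 185 CPM in WT gut. Gzmb averaged 3312 ± 248 CPM in Maf-KO gut and 1779 ± 533 CPM in WT gut. Gzmk (0.45, SE 0.84), Prf1 (0.06, SE 0.43), Srgn (-0.16, SE 0.17), Lamp1 (0.08, SE 0.13) and Serpinb9 (-0.05, SE 0.26) overlapped between the genotypes. The granzymes and Nkg7 had positive log2 values, and the pore, packing, lysosomal and inhibitor genes lay between -0.16 and 0.08. The median over the 10 genes, Nkg7 and Cd7 included, was 0.55, beside -0.00 over all genes, and is likewise a description. The fit shares 1 estimate of spread over the 4 groups, and Gzma ranged from 5.21 to 20.2 CPM in spleen.

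In spleen none of the 10 genes was called between the genotypes by edgeR, where 0.0151% of all genes were, and each adjusted p was 0.999. Nkg7 had spleen groups that did not overlap, at 119 ± 5.75 CPM in Maf-KO spleen and 96.6 ± 5.55 CPM in WT spleen (SD, n = 3 each). Its log2 fold change was 0.30 (SE 0.12). It was the only 1 of the 10 with an unadjusted p under 0.05, which 2.85% of all genes had, and the only 1 with groups apart and higher, which 3.59% had. Cd7 averaged 49.8 ± 5.65 CPM in Maf-KO spleen and 41.1 ± 3.14 CPM in WT spleen, a log2 fold change of 0.28 (SE 0.16) with overlapping groups. The granzymes had log2 values of -0.25 for Gzma (SE 0.50), 0.10 for Gzmb (SE 0.38), -0.75 for Gzmk (SE 0.78) and 0.29 for Gzmc (SE 0.40). Prf1 was at -0.04 (SE 0.37), Srgn at -0.18 (SE 0.14), Lamp1 at -0.18 (SE 0.10) and Serpinb9 at -0.03 (SE 0.22). The median was -0.03, beside -0.01 over all genes. DESeq2, limma-voom and limma-trend on log2 FPKM called none of the 10 either.

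The genotype difference in gut minus that in spleen was 0.90 for Nkg7 (SE 0.18) and 1.24 for Cd7 (SE 0.24) on the log2 scale. For Gzma it was 0.91 (SE 0.73), for Gzmb 0.80 (SE 0.58), for Gzmk 1.20 (SE 1.15) and for Gzmc 0.87 (SE 0.61). The other genes were at 0.09 (Prf1, SE 0.57), 0.02 (Srgn, SE 0.22), 0.26 (Lamp1, SE 0.16) and -0.02 (Serpinb9, SE 0.34). These differences contain the gut contrast that chose the genes and carry no test.

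**Figure D3:**
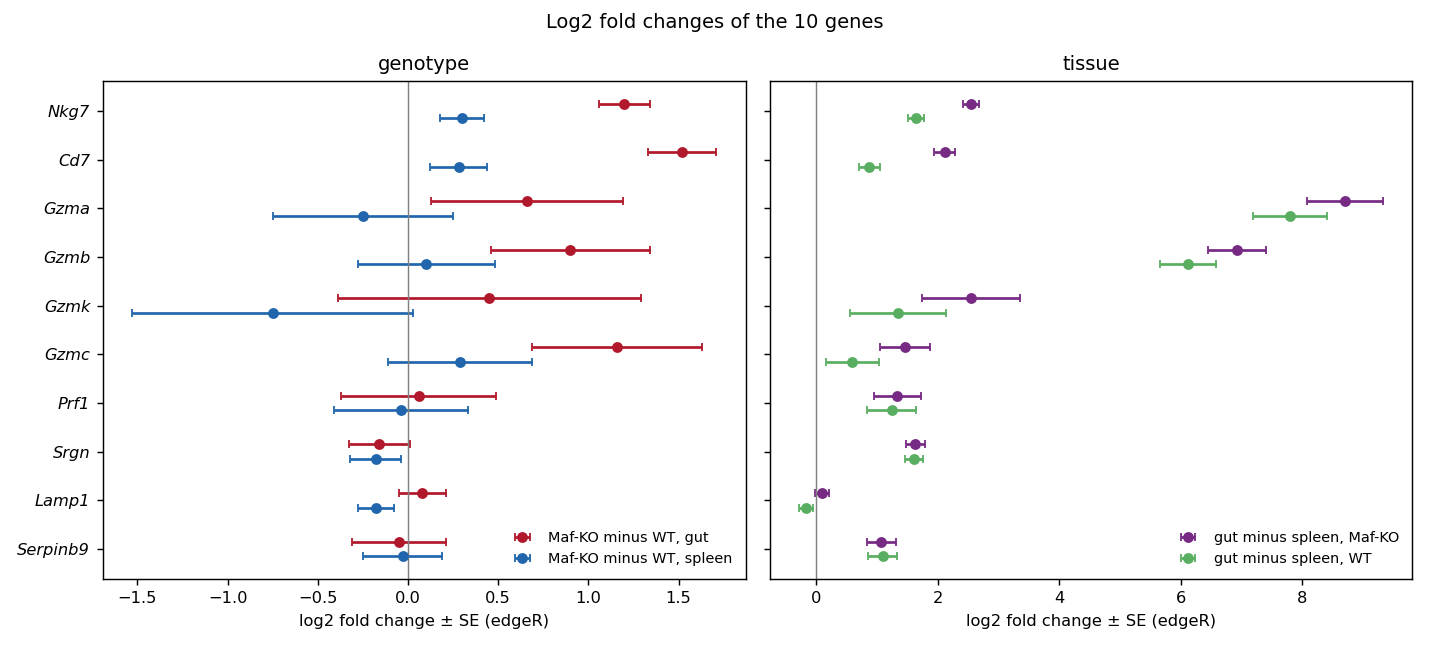
Log2 fold changes with their SE (edgeR) for the 10 genes, on the left for genotype (Maf-KO minus WT, in gut and in spleen) and on the right for tissue (gut minus spleen, in Maf-KO and in WT). Nkg7 and Cd7 stand at 1.20 and 1.52 for genotype in gut and at 0.30 and 0.28 in spleen, and the 2 horizontal scales differ.

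Per kilobase, the granule genes differed widely in level within a gut Treg library. The authors' log2 FPKM values (fragments per kilobase of gene, scaled to library size), taken out of the log, allow genes to be compared within a library. In Maf-KO gut Gzma averaged 4571 FPKM, rank 2 of the 12252 genes listed, and in WT gut 2950 FPKM, rank 4. Srgn followed, at 2262 FPKM in Maf-KO gut (rank 10) and 2578 FPKM in WT gut (rank 7), and Gzmb at 2169 FPKM (rank 11) and 1190 FPKM (rank 29). Srgn and Gzmb overlapped in Maf-KO gut, and Gzma and Srgn in WT gut. Nkg7 was next, at 791 FPKM in Maf-KO gut (rank 47) and 351 FPKM in WT gut (rank 157). Cd7 averaged 192 FPKM in Maf-KO gut, above Lamp1 at 132 FPKM in each library, but 67.9 FPKM in WT gut, below Lamp1 at 127 FPKM in each library. Serpinb9 (35.0 FPKM in Maf-KO gut and 37.0 in WT gut), Prf1 (17.1 and 16.6), Gzmk (8.97 and 6.77) and Gzmc (5.45 and 2.50) came last, with Gzmk and Gzmc overlapping in Maf-KO gut.

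The order in spleen was another. Srgn led at 867 FPKM in Maf-KO spleen and 997 FPKM in WT spleen. Nkg7 and Lamp1 came next, at 161 and 147 FPKM in Maf-KO spleen, where they overlapped, and at 133 and 169 FPKM in WT spleen, where they did not. Cd7 had 52.6 FPKM in Maf-KO spleen and 44.02 FPKM in WT spleen. Gzmb (21.2 FPKM in Maf-KO spleen and 20.2 in WT spleen), Serpinb9 (19.8 and 20.5) and Gzma (13.1 and 15.9) overlapped with one another in both genotypes. Prf1 averaged 8.06 FPKM in Maf-KO spleen and 8.38 FPKM in WT spleen, and Gzmk (1.81 and 3.21) and Gzmc (2.35 and 1.95) were the lowest and overlapped.

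The ratios between granule RNAs lay in separate ranges in gut and spleen. Gzma and Gzmb together were 309 and 549 times Prf1 in FPKM in Maf-KO gut and 309 and 199.8 times in WT gut, against 3.36 to 5.19 times in Maf-KO spleen and 3.22 to 5.02 times in WT spleen. Gzmb was 55.1 and 69.9 times its inhibitor Serpinb9 in Maf-KO gut and 33.7 and 29.8 times in WT gut, against 0.503 to 1.84 times in Maf-KO spleen and 0.757 to 1.14 times in WT spleen. Srgn in FPKM was 0.291 and 0.382 times the sum of Gzma and Gzmb in Maf-KO gut and 0.616 and 0.630 times in WT gut. In spleen it was 15.8 to 53.0 times that sum in Maf-KO and 19.9 to 50.2 times in WT. The 10 genes held 0.984 and 1.04% of all counts in Maf-KO gut and 0.793 and 0.635% in WT gut, against 0.133 to 0.146% in Maf-KO spleen and 0.151 to 0.164% in WT spleen.

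**Figure D4:**
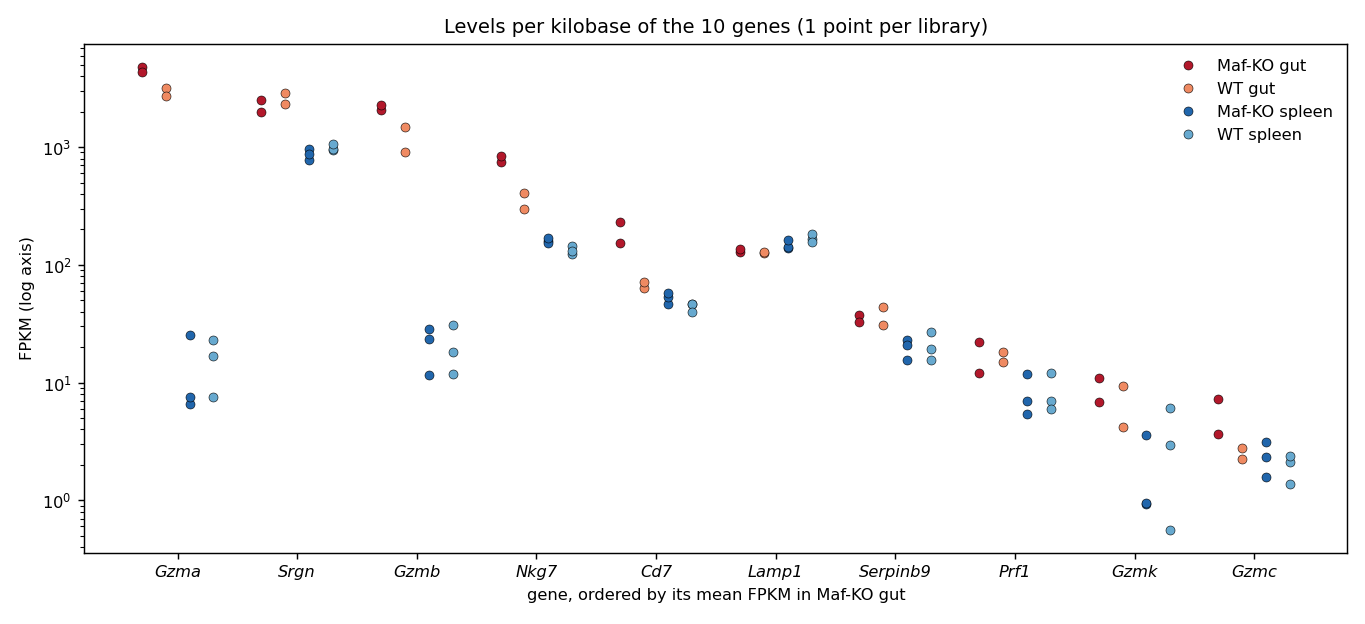
FPKM (log axis) of the 10 genes in every library, with genes ordered by their mean in Maf-KO gut and 1 point per library, colours giving the group. Gzma ranks first among them in gut (4571 FPKM in Maf-KO, 2950 in WT) and below Srgn, Nkg7, Lamp1, Cd7, Gzmb and Serpinb9 in spleen (13.1 and 15.9 FPKM).

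Other genes of the killing pathway were counted from lists chosen with earlier results of these data known, and no list gene was called between the genotypes in gut or spleen. Of all genes tested, 14.4% were called higher and 14.1% lower in gut in Maf-KO, and 14.7% and 13.3% in WT. Of 19 granule secretion genes tested, 5 rose in gut against spleen in Maf-KO and none fell (median 0.18). In WT, 5 rose and 2 fell (median 0.29). They included Ctsw, for the lysosomal protease cathepsin W of T and NK cells, at 212 ± 14.2 CPM in Maf-KO gut against 62.3 ± 11.97 CPM in Maf-KO spleen (log2 1.77, SE 0.16, adjusted p = 5.617e-05). In WT, Ctsw changed by 1.55 (SE 0.16, adjusted p = 1.161e-04). Stx11, for a syntaxin needed for granule fusion, rose by 1.80 in Maf-KO (SE 0.33, adjusted p = 0.00296) and 1.88 in WT (SE 0.33, adjusted p = 0.00236). Igf2r, one of the mannose-6-phosphate receptors that carry enzymes to lysosomes, fell by 0.66 on the log2 scale in WT (adjusted p = 0.00761), a call lost without WT gut replicate 1 (0.0596). M6pr, for the other such receptor on the list, rose by 0.57 in WT (adjusted p = 0.00188). In Maf-KO it rose by 0.44 (adjusted p = 0.00679), a call lost without TMM factors (0.167), with limma-trend on log2 FPKM (0.126) and without Maf-KO gut replicate 3. Rab27a and Unc13d, which dock and prime granules, did not pass in Maf-KO (0.15 and -0.16) or in WT (0.15 and -0.22).

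Of 12 further granzyme, death ligand and cytokine genes, 7 were tested, and 3 of them rose and 2 fell in gut in each genotype. Over all genes, 14.4% rose and 14.1% fell in Maf-KO, and 14.7% and 13.3% in WT. Fasl, for the ligand of the death receptor Fas, averaged 201 ± 10.1 CPM in Maf-KO gut against 22.4 ± 0.146 CPM in Maf-KO spleen (log2 3.17, SE 0.15, adjusted p = 6.603e-07). In WT it averaged 110.2 ± 19.1 CPM in gut against 15.3 ± 2.39 CPM in spleen (log2 2.85, SE 0.15, adjusted p = 1.535e-06). Between the genotypes Fasl was at 0.87 in gut (SE 0.16, adjusted p = 0.0962) and 0.56 in spleen (SE 0.14, adjusted p = 0.999), neither called. Ifng, for interferon gamma, rose in gut by 2.81 in Maf-KO (adjusted p = 4.349e-04) and 2.16 in WT (adjusted p = 0.00187). Ltb, for lymphotoxin beta, fell by 0.78 on the log2 scale in Maf-KO (adjusted p = 0.00228) and by 1.01 in WT (adjusted p = 5.542e-04). Gzmd, Gzmg and Gzmn had 0 counts in all 10 libraries.

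Among 7 tested intracellular serpin and cystatin genes, 2 rose in gut in Maf-KO and 5 in WT, and none fell. Called in WT alone were Serpina3f (adjusted p = 0.0313), Serpinb6a (0.0293, kept in 12 of 19 alternatives) and Cst3 (0.0143, kept in 16 of 19). These calls were near the threshold or were lost in some alternatives, so the counts are no measure of a genotype difference. Serpinb6b, from the chromosome 13 serpin cluster next to Serpinb9, rose by 1.55 in Maf-KO (SE 0.18, adjusted p = 1.860e-04) and 1.74 in WT (SE 0.18, adjusted p = 8.668e-05). Serpinb1a, for a neutral protease inhibitor, rose by 2.08 in Maf-KO (adjusted p = 0.00256) and 2.15 in WT (adjusted p = 0.00212). Of 16 lysosomal enzyme genes, 4 rose and 3 fell in Maf-KO and 3 rose and 3 fell in WT. Beside both lists, 14.4% of all genes rose and 14.1% fell in Maf-KO, and 14.7% and 13.3% in WT. Gla, for alpha-galactosidase A, was at 97.7 CPM in Maf-KO gut against 11.2 CPM in Maf-KO spleen (log2 3.12, SE 0.15, adjusted p = 7.621e-07) and rose by 3.51 in WT (SE 0.15, adjusted p = 3.961e-07). The cathepsin S gene Ctss fell by 0.59 on the log2 scale in Maf-KO (adjusted p = 0.00309) and by 0.58 in WT (adjusted p = 0.00336).

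A list of transcription factor genes of effector, naive and memory lymphocytes held 6 genes higher and 4 lower in gut of 13 tested in each genotype. Higher in both genotypes were Bhlhe40, Id2, Ikzf3, Prdm1, Runx3 and Tbx21. Lower were Tcf7, Bach2 and Id3 in both, Eomes in Maf-KO and Klf2 in WT. The shares over all genes were 14.4% higher and 14.1% lower in Maf-KO, and 14.7% and 13.3% in WT. Bhlhe40, for a factor of activated T cells, rose by 4.70 in Maf-KO (SE 0.39, adjusted p = 2.665e-05) and by 4.70 in WT (SE 0.39, adjusted p = 2.547e-05). Id2, an inhibitor of E proteins, rose by 3.29 in Maf-KO (adjusted p = 2.437e-05) and 3.47 in WT (adjusted p = 1.682e-05). Tcf7, for the TCF1 factor of naive and memory cells, fell by 2.19 on the log2 scale in Maf-KO (adjusted p = 7.660e-05) and by 2.34 in WT (adjusted p = 4.744e-05). For the T-box and Runx motifs shown above, Tbx21, Eomes and Runx3 were picked after their values were seen. Tbx21, for the factor T-bet, averaged 84.7 CPM in Maf-KO gut against 36.3 CPM in Maf-KO spleen (log2 1.22, adjusted p = 3.551e-04) and rose by 0.90 in WT (adjusted p = 0.00215). Runx3 rose by 1.39 in Maf-KO (adjusted p = 8.980e-04) and 1.11 in WT (adjusted p = 0.00336). Eomes was lower in gut in Maf-KO, at 0.283 ± 0.277 CPM against 2.86 ± 1.10 CPM in spleen (log2 -3.26, SE 0.74, adjusted p = 0.00914, but 0.0669 without Maf-KO gut replicate 2), and its -1.54 in WT did not pass (adjusted p = 0.091, but 0.046 without WT gut replicate 3).

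Other T cell surface genes, of several protein families, were counted beside Cd7. Of 8 tested, 5 were higher and 2 lower in gut in Maf-KO, and 4 were higher and 2 lower in WT. Over all genes, 14.4% were higher and 14.1% lower in Maf-KO, and 14.7% and 13.3% in WT. Cd6, for a scavenger-receptor protein of T cells, averaged 2248 CPM in Maf-KO gut against 965 CPM in Maf-KO spleen (log2 1.22, SE 0.14, adjusted p = 2.015e-04) and rose by 0.76 in WT (SE 0.14, adjusted p = 0.00313). Cd27, for a costimulatory receptor, fell by 0.54 on the log2 scale in Maf-KO (adjusted p = 0.00695, but 0.0713 without Maf-KO gut replicate 3) and by 0.69 in WT (adjusted p = 0.00191). Sectm1b had 0 counts in all libraries.

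Likeness of level was measured among 9347 genes with a mean of at least 5 CPM. Genes without a symbol and those with predicted, ribosomal, mitochondrial, immunoglobulin or T cell receptor names were left out of these. The genes whose level followed Nkg7 most closely over the 10 libraries were Soat2, Runx2 and Lin54. The root mean square difference of their log2 CPM, each centred on its own mean, from that of Nkg7 was 0.26, 0.29 and 0.33. For Cd7 they were Atp6v0d2 (0.36), Itga1 (0.36) and Nkg7 itself (0.39). For Gzmb they were Il22 (0.56), Fosl2 (0.65) and Ahrr (0.72). Atp6v0d2 averaged 77.1 CPM in Maf-KO gut, 30.1 in WT gut, 22.0 in Maf-KO spleen and 11.9 in WT spleen. Il22 averaged 18.8 CPM in Maf-KO gut and 11.4 in WT gut, with 0 counts in Maf-KO spleen and 0.0297 CPM in WT spleen. The libraries of a group share their tissue and genotype, so these are descriptions of likeness over 4 groups.

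Markers of other cells that the sort could hold were counted in each library. The 25 CD8, NK and innate lymphocyte markers summed to 869 to 910.4 CPM in Maf-KO gut, 824 to 970.4 in WT gut, 173 to 294 in Maf-KO spleen and 264 to 291 in WT spleen. In gut the sum was mostly Klrg1, Ccl5 and Cd160, at means of 267, 250 and 164 CPM in Maf-KO and 493, 127 and 116 CPM in WT. None of the markers was called between the genotypes in either tissue. Between tissues, 14.4% of all genes rose in gut and 14.1% fell in Maf-KO, and 14.7% and 13.3% in WT. Of 23 markers tested, 9 rose and 3 fell in gut in Maf-KO and 8 rose and 4 fell in WT. In Maf-KO those that rose were Cd160, Xcl1, Ccl3, Ccl4, Ccl5, Klrg1, Klrb1b, Cd244 and Tcrg-C2, and in WT the same genes without Cd244. Xcl1, for a chemokine of activated T and NK cells, rose by 4.08 in Maf-KO (adjusted p = 7.151e-06) and 4.01 in WT (adjusted p = 7.776e-06), and the receptor gene Klrg1 by 2.78 (adjusted p = 9.776e-04) and 2.83 (adjusted p = 8.428e-04). Tcrg-C2, a T cell receptor gamma constant gene, rose by 2.78 in Maf-KO (adjusted p = 0.00398) and 2.35 in WT (adjusted p = 0.00885). The delta gene Trdc was lower in gut, at -1.37 in Maf-KO (adjusted p = 0.0269, over 0.05 in 3 of 19 alternatives, each leaving out 1 library, and up to 0.174) and -0.86 in WT (adjusted p = 0.132).

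NK receptor genes moved in both directions between gut and spleen. Klrb1b, for an inhibitory receptor of the NKR-P1 family, was higher in gut by 2.66 in Maf-KO (adjusted p = 0.0149, over 0.05 in 2 of 19 alternatives) and 1.90 in WT (adjusted p = 0.0415, over 0.05 in 14 of 19 and up to 0.171). The Maf-KO call was lost when replicate 2 of gut (0.0826) or replicate 3 of spleen (0.0517) was left out. Cd244, for the receptor 2B4, rose by 1.86 in Maf-KO (adjusted p = 0.0416, over 0.05 in 9 of 19 alternatives and up to 0.197) and was at 0.42 in WT (adjusted p = 0.652). Klrd1, for CD94, fell in gut by 2.23 on the log2 scale in Maf-KO (adjusted p = 0.0302) and by 2.41 in WT (adjusted p = 0.0224). The Klrd1 call was lost in Maf-KO without replicate 2 (0.172) or 3 (0.0671) of Maf-KO gut or replicate 2 of Maf-KO spleen (0.0897), and with the Maf-KO groups alone (0.0697). In WT it was lost without replicate 1 (0.113) or 3 (0.104) of WT gut or replicate 3 of WT spleen (0.0537), and limma-voom did not call it in Maf-KO (0.0789) or WT (0.0532). Ncr1, for the NK receptor NKp46, stood at 0.319 to 0.522 CPM in Maf-KO gut and 0.592 to 0.88 in WT gut, against 0.877 to 5.62 CPM in Maf-KO spleen and 1.46 to 4.37 in WT spleen. The groups did not overlap, but Ncr1 was not called in Maf-KO (adjusted p = 0.065) or in WT (adjusted p = 0.15).

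The CD8 beta gene Cd8b1 was lower in gut, at a log2 value of -1.19 in Maf-KO (adjusted p = 0.0268) and -1.76 in WT (adjusted p = 0.00514). Its call was lost without replicate 2 (0.161) or 3 (0.0653) of Maf-KO gut and with the groups alone (0.065) in Maf-KO, and without replicate 1 of WT gut (0.0558) in WT. Klrc1 had 11 and 9 counts in Maf-KO gut and 0 in both WT gut libraries, and was called lower in WT gut than in WT spleen (adjusted p = 0.0234, over 0.05 in 3 of 19 alternatives and up to 0.0967). Klra7, also at 0 in WT gut, was called lower there too (adjusted p = 0.04, over 0.05 in 5 of 19 and up to 0.14). At 0 were Klrc2, Klra8 and Klra1 in Maf-KO gut and Klrc1, Klra8, Klra7 and Klra1 in WT gut. Within spleen, most of the 25 markers were highest in 1 library of each group, with exceptions. Maf-KO spleen replicate 2 was highest of its group in 17 of the 25, Ncr1 (5.62 CPM), Klrd1, Klre1 and Tyrobp among them, and had Gzma at 20.2 and Prf1 at 22.3 CPM. Klrb1c was highest in Maf-KO spleen replicate 1 (16.7 CPM), where Gzma was lowest (5.21 CPM). Of the 10 genes, only Gzma and Prf1 were highest of Maf-KO spleen in replicate 2. Srgn and Serpinb9 were highest in replicate 1. The rest were highest in replicate 3, Gzmb among them (36.6 CPM, against 30.5 in replicate 2). WT spleen replicate 3 was highest of its group in 15 of the 25, Ncr1 (4.37 CPM), Klrd1 and Tyrobp among them, and had Gzma at 18.4 and Prf1 at 22.7 CPM. Klre1 was highest in WT spleen replicate 1 (2.49 CPM, against 2.37 in replicate 3), where Prf1 was at 12.4 CPM. In WT spleen, Gzma, Gzmb, Prf1, Srgn and Serpinb9 were highest in replicate 3. Nkg7 and Gzmk were highest in replicate 1, and Cd7, Gzmc and Lamp1 in replicate 2. Maf-KO spleen replicate 2 (145 CPM) and WT spleen replicate 3 (149 CPM) were also highest of their groups in the myeloid gene Lyz2. The part of these cells in the spleen values was not tested. Leaving out any 1 library kept Gzma at 8.38 to 9.59 for gut minus spleen in Maf-KO and at 7.46 to 8.19 in WT.

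**Figure D5:**
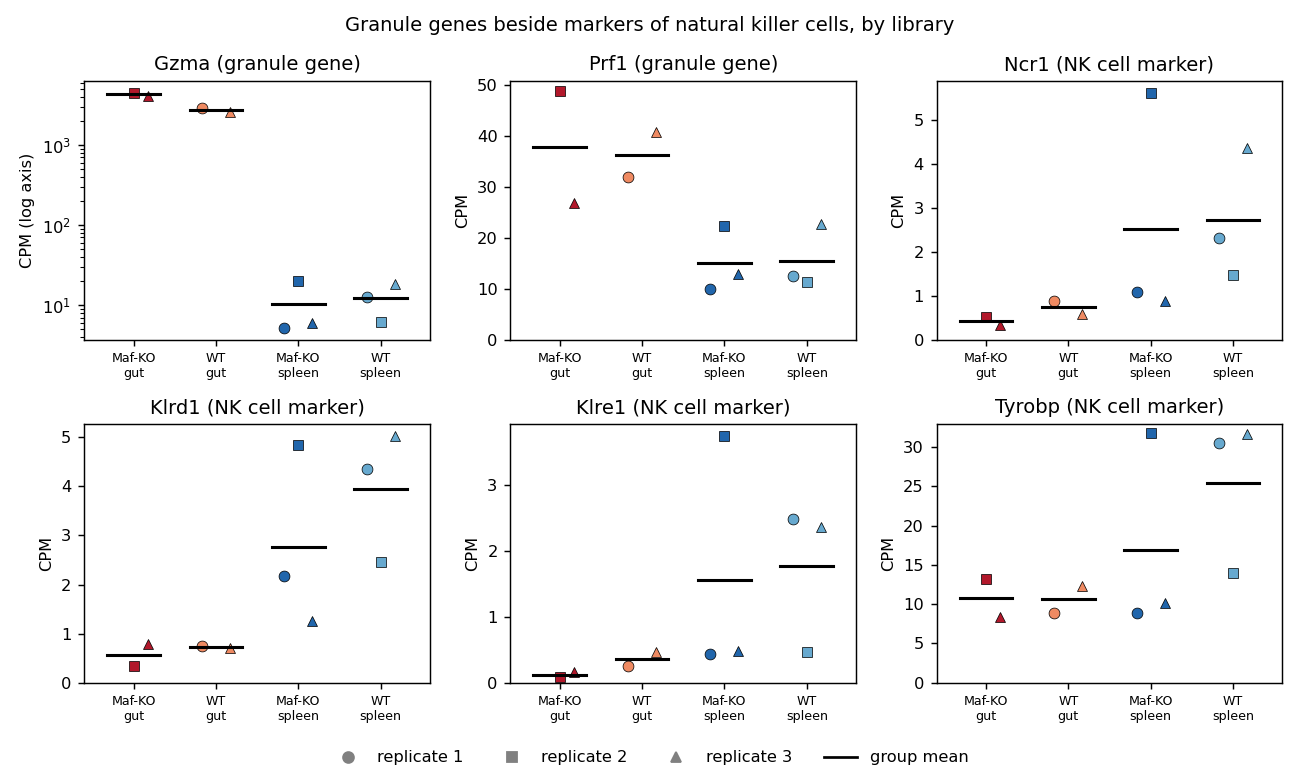
CPM of Gzma (log axis) and Prf1 beside the NK markers Ncr1, Klrd1, Klre1 and Tyrobp in every library, by group, with symbols for the replicate number and bars at the group mean. In spleen, Maf-KO replicate 2 and WT replicate 3 are highest of their groups in Gzma, Prf1 and Ncr1, while Klre1 is highest in WT replicate 1. Gzmb, not drawn, is highest in replicate 3 of both spleen groups, and Nkg7 in Maf-KO replicate 3 and WT replicate 1. In gut Ncr1 stays between 0.319 and 0.88 CPM beside Gzma at 2611 CPM or more. The markers drawn all had negative log2 values of gut minus spleen. Of the 23 tested on their list, 9 in Maf-KO and 8 in WT were called higher in gut, Xcl1 and Cd160 among them. Called lower were 3 in Maf-KO and 4 in WT. The part of such cells in the gut values was not tested.

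Other lineages were also measured. B and plasma cell markers summed to 1178 to 3459 CPM in Maf-KO gut and 2096 to 6449 in WT gut, against 194 to 462 CPM in Maf-KO spleen and 219 to 367 in WT spleen, led in gut by Jchain. Jchain had 3340 and 1112 CPM in Maf-KO gut and 6325 and 2008 CPM in WT gut, so replicates of each genotype were far apart. Of the 10 mast cell markers, whose granules hold other proteases, Mcpt1, Mcpt2, Tpsab1 and Tpsb2 were at 0 in both gut groups, and the summed level of 69.3 to 96.3 CPM in Maf-KO gut and 68.2 to 111 in WT gut was mostly Kit. Myeloid markers summed to 84.7 to 253 CPM in Maf-KO gut, 91.01 to 197 in WT gut, 138 to 488 in Maf-KO spleen and 156 to 858 in WT spleen. Epithelial and pancreatic markers summed to 144 to 158 CPM in Maf-KO gut, 188 to 193 in WT gut, 35.3 to 72.6 in Maf-KO spleen and 38.5 to 63.6 in WT spleen. In gut the sum was mostly Epcam, at means of 124 CPM in Maf-KO and 146 CPM in WT. Krt20, Vil1, Fabp2 and Muc2 had means of 0.758 CPM or less in both gut groups. Members of this list separated the gut genotypes in both directions, though none was called. Pnlip, for pancreatic lipase, and Cela2a, for a pancreatic elastase, had 0 counts in Maf-KO gut, against 27.03 and 7.57 CPM (Pnlip) and 26.8 and 3.55 CPM (Cela2a) in WT gut. Cdh1, for E-cadherin, had 25.2 and 19.8 CPM in Maf-KO gut against 5.28 and 6.15 CPM in WT gut, which is the direction of Nkg7 and Cd7. Epcam and Lgals4 were lower in mean in Maf-KO gut than in WT gut, and Krt8 averaged 1.26 CPM in both. Vil1 and Muc2 were higher in mean in Maf-KO gut, and Fabp2 and Krt20 lower. These last genes did not pass the low-count filter, and Muc2 had only 1 and 0 counts in Maf-KO gut, so their directions rest on very few reads. The part of these cells in the gut values, Nkg7 and Cd7 included, was not tested.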

How the data were processed

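Treg RNA of 10 libraries was prepared with RNeasy Plus Mini and TruSeq RNA kits, per the labels' protocols. The authors deposited raw counts for each Entrez gene, without normalisation. The deposited log2 values are the authors' log2 FPKM of 12252 genes per library, used per kilobase and as an alternative test. Subread, featureCounts, limma, GRCm38 and mm10 are named in the submitters' processing notes. Not given in the sources used here are their versions, the annotation release and whether strand was used. Rows without a symbol (852) held 0.173 to 0.203% of counts.

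Counts were fitted with edgeR 4.0.16 (R 4.3.3) by quasi-likelihood, with 1 coefficient for each group, after filterByExpr (minimum count 10, minimum total 15), with TMM factors of 0.887 to 1.12. Genes were called at a Benjamini-Hochberg adjusted p under 0.05, two-sided, over the 13214 genes tested. SE is the log2 fold change divided by the square root of F. The common dispersion was 0.0431, and replicates differed by a chi-square of 14.2 to 34.2 per degree of freedom, more than counting error. Depth floors cover counting error only.

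Members, lists and markers were chosen with earlier results of these data known. Named were all members, Maf, Foxp3, up to 4 called genes of a list by adjusted p and the 3 genes most like Nkg7, Cd7 and Gzmb. Any other gene of a list or marker set that is named, such as Klrd1, Cd8b1, Klrb1b and Cdh1, was chosen after its values were seen.

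The number in a library's title joins 4 gut libraries to a spleen library, and their deviations from group means correlated in each pair (r = 0.313, 0.255, 0.382 and 0.36), so the title number was taken to pair gut and spleen. With 2 libraries in a gut group the deviations are mirror images, so the values of r within a genotype are not independent. The main fit did not use the pairing, and its tissue p-values treat paired libraries as independent. Blocking on the title number changed no call of a member. In Maf-KO the genes called between tissues were 5778 with it as a random effect, in place of 3774.

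Alternatives were DESeq2 size factors, no TMM factors, no low-count filter, DESeq2 1.42.0, limma-voom and limma-trend (limma 3.58.1), the compared groups alone, each library left out and replicate blocks. These blocks used the title number, except the fixed block between the spleen genotypes, which used the replicate number. The procedure was tested on simulated data.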

Additional observations from a re-analysis of the deposited data

How the results depend on the processing

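Over all alternatives, Nkg7, Cd7, Gzma, Gzmb and Srgn kept their calls in both tissue contrasts, and no gene of the 10 was called in spleen between the genotypes. Besides the library removals named above, Prf1 lost its tissue call without TMM factors (0.0519 in Maf-KO, 0.0708 in WT) and with limma-trend (0.0514 and 0.0579), and Gzmk lost its Maf-KO call there too (0.0515 and 0.0513). Gzmc was at 0.0543 with the Maf-KO groups alone. Lamp1 turned negative in Maf-KO without TMM factors (-0.17) and with limma-trend on log2 FPKM (-0.15), where the median of all genes moved to -0.27, and in WT limma-trend called it lower (0.0115).

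Genes called in spleen between the genotypes numbered 2, and 12 without the low-count filter, 19 with DESeq2, 5 with limma-trend, 1 with the spleen groups alone, 0 with limma-voom and 2 to 9 with 1 library left out (9 without WT spleen replicate 2). With the replicate block on title number as a random effect, 0 were called. A fixed block on the spleen replicate number also called 0. Spleen replicate numbers did not pair the genotypes (r = -0.0394, -0.183 and -0.347), so that fixed block is not a check of the title number block. Genes called between tissues numbered 3774 in Maf-KO, 2157 to 3789 with 1 library left out (2430 without Maf-KO gut replicate 2, 2157 without replicate 3) and 5778 with the replicate block as a random effect. In WT they numbered 3703, and 2216 to 3593 with 1 library left out (2216 without WT gut replicate 1).

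With 1 library left out, spleen genotype values changed sign for Gzma (-1.14 to 0.15), Gzmb (-0.17 to 0.55), Gzmk (-1.73 to 0.11), Prf1 (-0.43 to 0.35) and Serpinb9 (-0.19 to 0.23). The cause was not tested. Groups of 2 and 3 limit what can be called, and Gzmk and Gzmc were close to the counting floor in spleen.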
